A study of Homo sapiens with 18 samples.

Results

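The annexins are a family of calcium-dependent, phospholipid-binding proteins, and 8 annexin genes were followed here through 3 knockdown experiments in 786-O, a widely used cell line of clear cell renal carcinoma. The members are ANXA1, ANXA2, ANXA3, ANXA4, ANXA5, ANXA6, ANXA7 and ANXA11. They were taken by gene symbol, 8 of 58735 genes in the RBCK1 and ANKRD35 tables and 8 of 29928 symbols in the MITD1 table, and all 8 were found in each. ANXA1 was included because the title of the series puts it at the end of an axis of RBCK1, ANKRD35 and MITD1 that bears on sunitinib sensitivity. The question asked of their RNA is whether ANXA1 changed alone or together with its family.

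The 18 libraries formed 6 groups of 3, all from cultured 786-O cells. The shRBCK1 group had a knockdown of the ubiquitin ligase gene RBCK1 and was compared with shcontrol. The siANKRD35 group was compared with sicontrol_for_siANKRD35, and the siMITD1 group with sicontrol_for_siMITD1. Each pair had control libraries of its own. The labels give no hairpin or siRNA sequence, no time after knockdown and no drug, and they do not say whether the libraries of a group are separate cultures. The p-values therefore speak only of library-to-library spread, part or all of which may be technical. In bulk RNA, a smaller fraction of cells expressing a gene and less RNA per cell cannot be told apart.

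RNA was measured as FPKM, that is, fragments divided by gene length and by a library size. Total reads recovered from the values ran from 16346478 to 19034974 per library in the RBCK1 and ANKRD35 tables, and from 12703947 to 13888443 in the MITD1 table over genes whose reads came out whole. The size used was not that total in the RBCK1 and ANKRD35 tables. It was above the total in each shRBCK1 and sicontrol_for_siANKRD35 library and below it in each shcontrol and siANKRD35 library. In replicate 1 it was 19173800 against 18648246 in shRBCK1 and 17052800 against 17418255 in shcontrol. Relative to scaling by the totals, this lowers shRBCK1 against shcontrol and raises siANKRD35 against its control. The alternative with voom scaled by the totals. The targeted RNA was lower in each knockdown: RBCK1 changed by −3.87, ANKRD35 by −9.49 and MITD1 by −1.19 in their own comparisons (log2 of FPKM + 1, knockdown minus control, a scale that understates the change of low genes). In its own controls the ANKRD35 level was 727.4 FPKM, and in siANKRD35 it was listed at 0, 0 and 0.0332 FPKM. In each library of the other tables it was listed at 0.0392 FPKM or less. So in ANKRD35 level the controls, and not the siANKRD35 libraries, stand apart from the other tables. The labels do not say why, and the cause was not tested. RBCK1 itself was listed at 480.3 ± 16.0 FPKM in shcontrol and 31.9 ± 1.04 FPKM in shRBCK1, but at 70.8 ± 2.44 FPKM in sicontrol_for_siANKRD35 and 65.5 ± 0.96 FPKM in sicontrol_for_siMITD1, in tables normalized separately. Of 9 renal carcinoma markers, 8 were at 1 FPKM or more in each library, while the summed markers of fibroblasts, endothelium and blood cells reached at most 4.761, 0.3308 and 5.061 FPKM. The summed blood cell markers were 4.285 to 5.061 FPKM in sicontrol_for_siMITD1 and 1.187 to 1.702 FPKM in siMITD1; their part in the results was not tested. LAPTM5 carried most of that sum, at 4.31 ± 0.48 and 1.31 ± 0.16 FPKM, whereas PTPRC was at 0.0158 FPKM or less and CD3E was listed at 0 in each library. The siANKRD35 libraries differed in how their values followed GC content across genes. The rank correlation of the deviation from the group mean with GC was −0.73 in replicate 2, against 0.67 in replicate 1 and 0.44 in replicate 3. Deviations from a mean of 3 libraries sum to 0 for each gene, so this measure alone cannot single out replicate 2. Leaving out replicate 2 gave 6518 genes called, against 4138 without replicate 1 and 2814 without replicate 3. Values without replicate 2 are given where leaving it out changes a call of a member.

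Annexins bind acidic membrane phospholipids through a conserved core of repeats when calcium rises, and differ in their N-terminal tails, which carry phosphorylation sites and docking sites for S100 proteins. Annexin A1 is known as a glucocorticoid-induced mediator that acts through formyl peptide receptors and restrains phospholipase A2. Annexin A2 forms a tetramer with S100A10 that anchors plasminogen activation at the cell surface. Annexin A5 binds exposed phosphatidylserine, and annexins A1, A2, A4, A5 and A6 gather at wounded membrane during repair. Annexins A7 and A11 carry long N-terminal tails that bind sorcin and PDCD6, calcium-binding proteins of the penta-EF-hand class.

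The members are scattered over the genome, so none neighbours another. On GRCh38 with GENCODE 29, ANXA1 (ENSG00000135046) lies on chromosome 9 at 73151757 to 73170393 on the plus strand, and ANXA2 (ENSG00000182718) on chromosome 15 at 60347134 to 60402883 on the minus strand. ANXA3 (ENSG00000138772) and ANXA5 (ENSG00000164111) are both on chromosome 4, at 78551519 to 78610451 (plus) and 121667955 to 121697113 (minus). ANXA7 (ENSG00000138279) and ANXA11 (ENSG00000122359) are both on chromosome 10 on the minus strand, at 73375101 to 73414076 and 80150889 to 80205572. ANXA4 (ENSG00000196975) lies on chromosome 2 at 69644425 to 69827100 (plus) and ANXA6 (ENSG00000197043) on chromosome 5 at 151100712 to 151157882 (minus). The FPKM values use a single listed length per gene, which for each member is longer than its principal transcript. The sources used here do not state which reads were counted. An antisense gene shares exon bases with 1 member: AL512656.1 overlaps 105 bases of ANXA7 exons and was at 0.3108 FPKM or less in the RBCK1 and ANKRD35 tables.

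ANXA1 and ANXA2 were lower together in one comparison, and ANXA7 moved against ANXA1 in another. The DNA upstream of the RefSeq start is therefore shown for these 3 genes. The sequences come from the RefSeq promoter windows of GRCh38.p14, which matched all 8 members with 12 windows. Each is printed 5′ to 3′ on the strand of its gene, up to the first annotated exon within the window. For ANXA2 the window lies inside the annotated gene, which runs from 60347134 to 60402883. Its printed DNA is therefore not upstream of the annotated gene start at 60402883. Capitals mark letters searched on both strands. Those that matched a member were the TATA box letters TATAAA, the CCAAT box, the Sp1 letters GGGCGG, the AP-1 letters TGANTCA and the kappaB consensus. A match of the CCAAT box on the other strand reads ATTGG as printed. A further stretch of 30 bases shows the TATAAA match, which lies at position −31 from the RefSeq start in both ANXA1 and ANXA2.
ANXA1, chr9:73151615-73151756, plus strand: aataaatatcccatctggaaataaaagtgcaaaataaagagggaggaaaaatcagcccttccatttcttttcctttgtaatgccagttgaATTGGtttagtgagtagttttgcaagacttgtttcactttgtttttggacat
ANXA1, chr9:73151822-73151851, plus strand: cctttaaaatccTATAAAatcagaagccca
ANXA2, chr15:60398044-60398236, minus strand: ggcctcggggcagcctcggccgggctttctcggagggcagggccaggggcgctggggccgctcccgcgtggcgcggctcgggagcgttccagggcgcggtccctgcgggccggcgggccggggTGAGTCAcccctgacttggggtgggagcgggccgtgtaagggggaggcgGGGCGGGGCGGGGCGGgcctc
ANXA2, chr15:60398000-60398029, minus strand: ggatgtggcgggTATAAAagccccacccag
ANXA7, chr10:73414077-73414308, minus strand: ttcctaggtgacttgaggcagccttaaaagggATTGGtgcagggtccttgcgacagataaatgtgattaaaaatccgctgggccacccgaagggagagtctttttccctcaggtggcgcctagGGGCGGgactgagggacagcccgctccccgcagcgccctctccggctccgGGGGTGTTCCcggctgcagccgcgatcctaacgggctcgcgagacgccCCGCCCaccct

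The 3 sequences differ in base composition and in which letters they hold. The 250-base ANXA1 window is 38.4% GC, against 78% for ANXA2, 66% for ANXA7 and a median of 58% over 35116 RefSeq windows of the same length. TATAAA is in 10.72% of those windows, and among the members in those of ANXA1 and ANXA2 and in 1 of the 3 ANXA11 windows. TGANTCA is in 6.573% of all windows and, of the members, in that of ANXA2. GGGCGG is in 42.64%, CCAAT in 32.01% and the kappaB consensus in 9.961% of all windows. The ANXA3 window, which belongs to the member that changed most in the RBCK1 comparison, holds none of these letters. A match is a description of the letters and not evidence that a factor binds there.

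**Figure D1:**
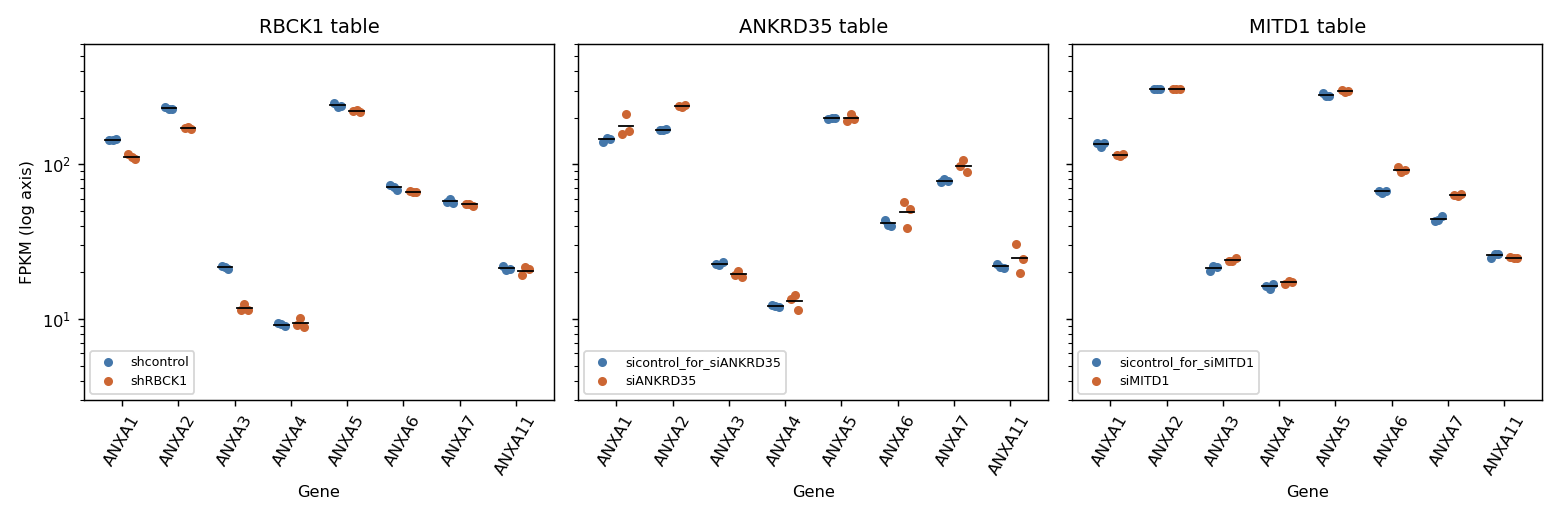
FPKM of the 8 annexins in each library (log axis; points are libraries, bars are group means; blue, control; orange, knockdown), with 1 panel per separately normalized table. ANXA1, ANXA2 and ANXA5 are the 3 highest members in every group, and the siANKRD35 libraries scatter more than the others for ANXA1, ANXA6 and ANXA11.

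ANXA1 was the member with the highest FPKM after ANXA5 and ANXA2 in each control group. In shcontrol, FPKM per listed gene length was 241.4 ± 6.56 for ANXA5 (SD, n = 3, as for all group values here), 230.1 ± 3.8 for ANXA2 and 144.6 ± 1.26 for ANXA1, followed by ANXA6 at 71.0 ± 2.69 and ANXA7 at 57.9 ± 1.89. ANXA3 at 21.6 ± 0.61 and ANXA11 at 21.3 ± 0.69 overlapped, and ANXA4 was lowest at 9.21 ± 0.19. The order of the first 3 was the same in sicontrol_for_siANKRD35, where ANXA1 was at 144.8 ± 5.08 and ANXA7 stood above ANXA6. In sicontrol_for_siMITD1 ANXA2 (307.6 ± 1.83) stood above ANXA5 (281.3 ± 6.97), with ANXA1 at 134.6 ± 4.73.

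These levels depend on the length used, because the listed length of each member exceeds that of its principal transcript. For ANXA2 the listed length is 8824 bases, against 1676 for its principal transcript, and for ANXA1 4561 against 2209. Per principal transcript, ANXA2 was the highest member in each control group, at 1212, 881 and 1620 FPKM, and ANXA1 again came after ANXA2 and ANXA5 at 298.6, 299.0 and 277.9 FPKM. ANXA11 then became the lowest in each control group, at 26.0, 26.8 and 31.7 FPKM. The choice of length moves levels between genes and leaves the ratios between groups as they are.

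**Figure D2:**
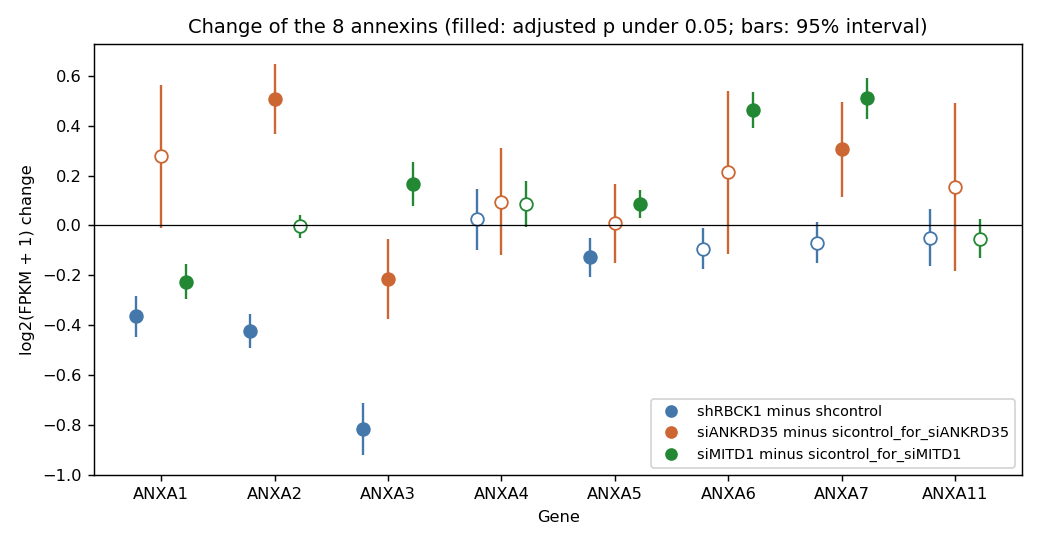
Change of each annexin in the 3 comparisons (log2 of FPKM + 1, knockdown minus control; points are limma estimates, bars 95% intervals, filled points passed the adjusted p threshold of 0.05). ANXA1 lies below 0 in the RBCK1 and MITD1 comparisons, while ANXA6 and ANXA7 lie well above 0 in the MITD1 comparison.

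In the RBCK1 comparison ANXA1 fell with part of its family. ANXA1, ANXA2, ANXA3 and ANXA5 were lower in the shRBCK1 libraries (ANXA5 not under quantile normalization), and ANXA4, ANXA6, ANXA7 and ANXA11 did not pass the test. So 4 of 8 members were called lower and 0 higher by limma (Benjamini-Hochberg adjusted p under 0.05), in a comparison in which 49.1% of 12227 tested genes were called, 24.9% lower and 24.1% higher. The count of members called is close to the background. The share of called genes that were higher, 49.2%, was 61.1% with voom on reads. The median change of the 8 members was −0.11 (0.00 with quantile normalization), against 0.01 over all tested genes, and the groups did not overlap for 6 of 8 members, against 59% of all tested genes.

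ANXA1 measured 143.8, 144.0 and 146.1 FPKM in shcontrol and 116.7, 112.1 and 107.8 FPKM in shRBCK1. Each knockdown library lay below each control, and the mean fell by 22.4% (log2 change −0.36, SE 0.036, limma adjusted p = 0.000163). ANXA2 measured 234.5, 227.7 and 228.2 FPKM in shcontrol against 171.9, 173.9 and 168.1 FPKM in shRBCK1, again without overlap (−0.42, SE 0.030, limma adjusted p = 3.15e-05). The 95% intervals of the ANXA1 change (−0.45 to −0.28) and of the ANXA2 change (−0.49 to −0.35) overlap. Accordingly the ratio of ANXA1 to ANXA2 FPKM was 0.629 ± 0.014 in shcontrol and 0.655 ± 0.021 in shRBCK1.

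ANXA3, an annexin abundant in neutrophils, changed most of the members. Its FPKM was 22.09, 21.77 and 20.92 in shcontrol and 11.46, 12.50 and 11.50 in shRBCK1, and the mean fell by 45.3% (−0.82, SE 0.044, limma adjusted p = 8.84e-06). Of all tested genes, 96.5% had a smaller absolute change than ANXA3, against 79.8% for ANXA1. The ANXA3 interval (−0.92 to −0.71) lies outside that of ANXA1.

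ANXA5 was the fourth member called and its call was fragile. It measured 248.6, 235.7 and 239.9 FPKM in shcontrol and 221.0, 224.8 and 216.4 FPKM in shRBCK1 (−0.13, SE 0.033, limma adjusted p = 0.0149). The groups did not overlap, but the call held in 8 of 14 alternative settings, and quantile normalization gave 0.04. ANXA6, the largest annexin with a duplicated core, ran from 68.33 to 73.72 FPKM in shcontrol and from 66.18 to 67.07 FPKM in shRBCK1. Its change of −0.09 did not pass the test (limma adjusted p = 0.0589, interval −0.18 to −0.01).

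The other 3 members had smaller estimates. ANXA7 went from 57.9 ± 1.89 to 55.1 ± 1.09 FPKM (−0.07, limma adjusted p = 0.14, interval −0.15 to 0.01). ANXA11 went from 21.3 ± 0.69 to 20.6 ± 1.21 FPKM (−0.05, limma adjusted p = 0.436, interval −0.16 to 0.07). ANXA4 measured 9.36, 9.28 and 8.99 FPKM in shcontrol and 9.10, 10.16 and 8.93 FPKM in shRBCK1, so that its groups overlapped (0.02, limma adjusted p = 0.728, interval −0.10 to 0.15). Quantile normalization turned the sign of the ANXA7 and ANXA11 estimates, so no direction is read for them.

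The ANXA2 value carries a limit of its own. ANXA2P2, a processed pseudogene on chromosome 9 with a near-identical copy of the ANXA2 coding sequence, was listed at 124.9, 109.2 and 101.5 FPKM in shcontrol and 91.22, 104.6 and 92.87 FPKM in shRBCK1, and the counting could have split reads between the pair. With the reads of both genes summed, the change was −0.35 (limma-voom adjusted p = 8.81e-11). ANXA9, an annexin outside the 8 members, rose from 0.664 ± 0.215 to 1.29 ± 0.19 FPKM (0.46, limma adjusted p = 0.0165), on 61 and 128 reads in all.

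In the ANKRD35 comparison the family did not move as one, and ANXA1 did not pass the test. ANXA2 and ANXA7 were higher and ANXA3 was lower in the siANKRD35 libraries. Thus 2 of 8 members were called higher, 1 lower and 5 not, in a comparison in which limma called 36.3% of 11890 tested genes, 19.4% higher and 16.9% lower. The share of members called is near that background. The share of called genes that were higher, 53.5%, was 34.5% with upper-quartile scaling. The median change of the members was 0.18 (−0.01 with quantile normalization), against 0.03 over all tested genes, and 4 of 8 members had groups that did not overlap, against 52.2% of tested genes.

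ANXA1 measured 139.1, 148.9 and 146.3 FPKM in sicontrol_for_siANKRD35 and 156.2, 212.5 and 163.1 FPKM in siANKRD35. The groups did not overlap, but replicate 2 of the knockdown lay far above the other knockdown libraries and set the spread. The change was 0.28 (SE 0.122, interval −0.01 to 0.56, limma adjusted p = 0.116), and over the alternatives the estimate ran from −0.10 to 0.36 with adjusted p from 0.0345 to 0.622. Without siANKRD35 replicate 2 the estimate was 0.14 (limma adjusted p = 0.0541). These libraries cannot tell a rise of this size from no change.

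ANXA2 had the clearest change. It measured 167.2, 166.8 and 168.2 FPKM in the controls and 239.5, 235.0 and 241.5 FPKM in siANKRD35, 42.6% higher (0.51, SE 0.060, limma adjusted p = 0.00181). The knockdown libraries were tight here, and replicate 2 did not stand apart from the other siANKRD35 libraries. ANXA2 was called higher under all 15 alternatives, with estimates from 0.20 to 0.67, and at 0.41 when its reads were summed with those of ANXA2P2. ANXA2P2 itself rose from 117.7 ± 2.86 to 153.6 ± 17.5 FPKM (0.38, limma adjusted p = 0.0207), a call that held in 5 of 14 alternatives (0.06 to 0.46).

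The other 2 calls were fragile. ANXA7 measured 76.62, 80.28 and 78.37 FPKM in the controls and 97.01, 105.9 and 89.22 FPKM in siANKRD35 (0.31, SE 0.081, limma adjusted p = 0.0255), and the call held in 5 of 14 alternatives. ANXA3 measured 22.82, 22.18 and 23.42 FPKM against 19.38, 20.39 and 18.81 FPKM (−0.21, SE 0.068, limma adjusted p = 0.0462), and the call held in 7 of 14. Without siANKRD35 replicate 2 both stayed called, ANXA7 at 0.24 and ANXA3 at −0.24. Both pairs of groups were separate, and ANXA7 and ANXA3 kept their direction under each alternative.

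ANXA6 and ANXA11 split by library. ANXA6 measured 56.67, 38.72 and 51.16 FPKM in siANKRD35 against 43.92, 40.62 and 40.07 FPKM in the controls, and ANXA11 measured 30.34, 19.90 and 24.39 FPKM against 22.76, 21.76 and 21.34 FPKM. For both genes siANKRD35 replicate 2 was below each control and the other knockdown libraries were above, the opposite of its place for ANXA1. Neither passed the test with all libraries (0.21, limma adjusted p = 0.267 for ANXA6; 0.15, limma adjusted p = 0.431 for ANXA11). Without replicate 2, ANXA6 was at 0.37 (limma adjusted p = 0.00424) and ANXA11 at 0.30 (limma adjusted p = 0.0324), and 5 of 8 members were called instead of 3, while the genes called over the whole table went from 4312 to 6518.

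ANXA4 and ANXA5 overlapped between the groups. ANXA4 measured 12.1 ± 0.15 FPKM in the controls and 13.1 ± 1.42 FPKM in siANKRD35 (0.10, limma adjusted p = 0.439, interval −0.12 to 0.31). ANXA5 measured 198.5 ± 1.67 and 199.9 ± 10.2 FPKM (0.01, limma adjusted p = 0.929, interval −0.15 to 0.17), and 6 of 14 alternatives turned its sign. Across all genes of this comparison the change fell with gene length (rank correlation −0.41, beside 0.03 after RBCK1 and 0.09 after MITD1 knockdown). After correction for length and GC content 6 of 8 members were called, beside 43.7% of 11885 tested genes. ANXA1 was among them at 0.17 (limma adjusted p = 0.0345), ANXA2 was at 0.64, and ANXA5 was called at −0.18 (limma adjusted p = 0.0156), opposite in sign to its reported 0.01. The call of ANXA7 was lost (0.09, limma adjusted p = 0.226).

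**Figure D3:**
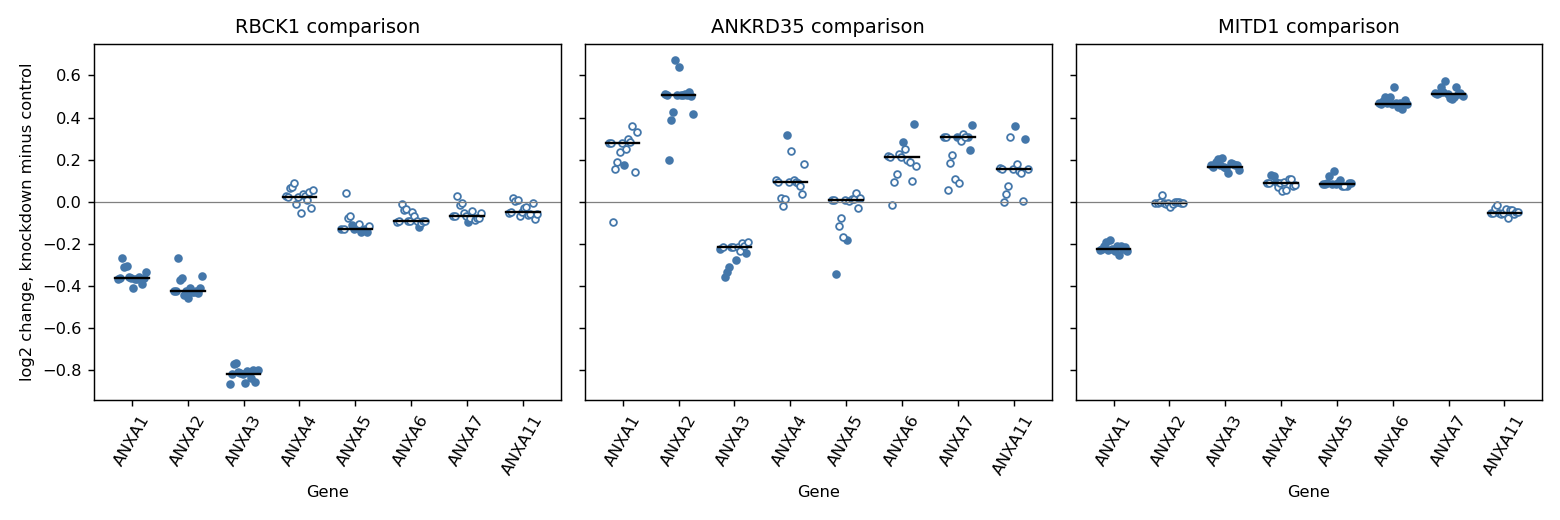
Change of each annexin under every setting tried (1 point per setting, filled where called at an adjusted p under 0.05; the bar is the reported value), by comparison. ANXA1 stays below 0 and called in the RBCK1 and MITD1 panels, and crosses 0 in the ANKRD35 panel, where it runs from −0.10 to 0.36.

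In the MITD1 comparison ANXA1 was the one member called lower. In the siMITD1 libraries ANXA3, ANXA5, ANXA6 and ANXA7 were higher, and ANXA2, ANXA4 and ANXA11 did not pass the test. The count was 4 of 8 members higher and 1 lower, in a comparison in which limma called 65.6% of 10415 tested genes, 30% higher and 35.6% lower. With so many genes called, 5 of 8 members called is near the background. The median change of the members was 0.09, against −0.03 over all tested genes, and 6 of 8 members had groups that did not overlap, against 70.4% of tested genes.

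ANXA1 measured 137.2, 129.1 and 137.5 FPKM in sicontrol_for_siMITD1 and 115.0, 113.4 and 116.3 FPKM in siMITD1. Each knockdown library was below each control, and the mean fell by 14.6% (−0.23, SE 0.030, limma adjusted p = 0.000217), and ANXA1 was called lower in 14 of 14 alternatives. This is a change of middling size for the comparison, since 48.4% of all tested genes had a smaller absolute change.

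ANXA7 and ANXA6 had the largest changes of the members. ANXA7 measured 42.69, 43.36 and 46.53 FPKM in the controls and 63.00, 62.86 and 64.06 FPKM in siMITD1, 43.2% higher (0.51, SE 0.036, limma adjusted p = 5.14e-06). ANXA6 measured 67.41, 65.39 and 67.51 FPKM in the controls and 95.59, 89.52 and 92.17 FPKM in siMITD1, 38.4% higher (0.46, SE 0.031, limma adjusted p = 3.94e-06). For both genes the knockdown libraries lay well clear of the controls, and the call held in 14 of 14 alternatives.

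ANXA3 and ANXA5 rose by less. ANXA3 measured 20.41, 21.99 and 21.73 FPKM in the controls and 23.77, 23.80 and 24.73 FPKM in siMITD1 (0.17, SE 0.039, limma adjusted p = 0.00497). ANXA5 measured 289.3, 277.0 and 277.5 FPKM in the controls and 302.0, 295.6 and 297.2 FPKM in siMITD1 (0.08, SE 0.025, limma adjusted p = 0.0151). The groups were separate in both, and ANXA5 was called in 13 of 14 alternatives.

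ANXA2 did not pass the test here and had a narrow interval. It measured 305.5, 308.3 and 309.0 FPKM in the controls and 306.2, 307.4 and 306.6 FPKM in siMITD1, on 119112 and 124507 reads. The estimate was −0.00 with a 95% interval of −0.05 to 0.04, which does not reach the ANXA1 interval of −0.30 to −0.16. ANXA4 went from 16.2 ± 0.64 to 17.3 ± 0.42 FPKM (0.09, limma adjusted p = 0.0897) and ANXA11 from 25.9 ± 0.85 to 24.9 ± 0.16 FPKM (−0.05, limma adjusted p = 0.205, interval −0.13 to 0.03).

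**Figure D4:**
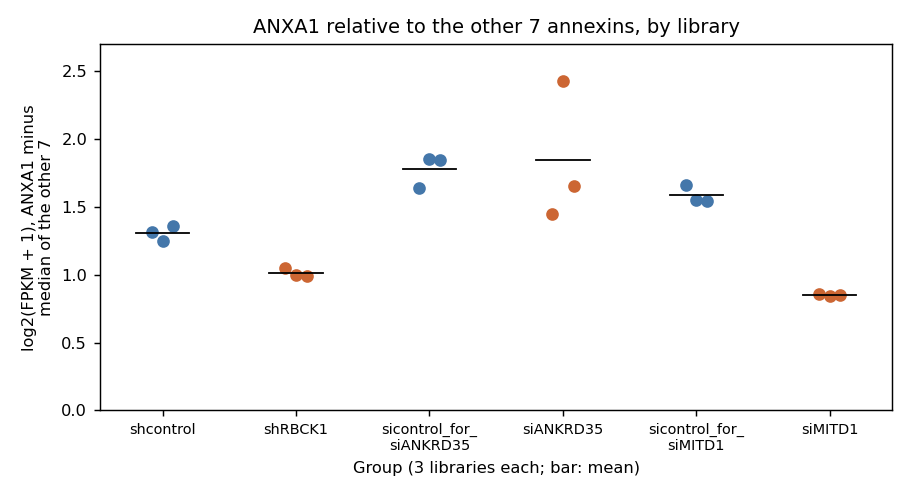
ANXA1 minus the median of the other 7 annexins in each library (log2 of FPKM + 1; points are libraries, bars group means). The siMITD1 libraries lie between 0.841 and 0.858, below each of their controls, and the siANKRD35 libraries spread from 1.45 to 2.43.

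Measured within each library, ANXA1 stood lower relative to the middle member of its family, ANXA7, after knockdown of RBCK1 and of MITD1. ANXA1 minus the median of the other 7 members was 1.31 ± 0.055 in shcontrol and 1.01 ± 0.035 in shRBCK1 on the log2 scale. It was 1.59 ± 0.065 in sicontrol_for_siMITD1 and 0.850 ± 0.0084 in siMITD1. In both the groups did not overlap. ANXA7 rose by 0.51 in siMITD1, and in shRBCK1 ANXA2 and ANXA3 had the larger decreases, so the measure does not place ANXA1 below each member. The measure also depends on the listed gene lengths. Per principal transcript in sicontrol_for_siMITD1, the means of ANXA3 (66.1 FPKM) and ANXA4 (64.0 FPKM) stood above that of ANXA7 (58.2 FPKM). The middle member would then differ, and with it the size of the drop. In the ANKRD35 comparison, with ANXA6 at the median, the control value was 1.78 ± 0.12 and the knockdown libraries were at 1.45, 2.43 and 1.65, on both sides of the controls.

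The summed FPKM of the 8 members went from 797.2 ± 12.4 to 667.6 ± 12.3 in the RBCK1 comparison, from 687.5 ± 5.44 to 819.6 ± 33.3 in the ANKRD35 comparison and from 898.0 ± 9.43 to 942.0 ± 6.34 in the MITD1 comparison. The sum, taken per listed gene length, is mostly ANXA1, ANXA2 and ANXA5. ANXA1 made up 18.2%, 21.1% and 15.0% of it in the 3 control groups and 16.8%, 21.6% and 12.2% in the matching knockdowns. ANXA2 took 24.4% of the sum in sicontrol_for_siANKRD35 and 29.2% in siANKRD35, while ANXA5 went from 28.9% to 24.4%. Sums and shares would differ per principal transcript, where ANXA2 was at 1212 FPKM and ANXA1 at 298.6 FPKM in shcontrol.

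Across all 18 libraries, each taken as log2(FPKM + 1) minus the mean of its own control group, ANXA2 followed ANXA1 more closely than the other members did. Pearson's r with ANXA1 was 0.84 for ANXA2, which ranked 196 of 9262 genes tested in every table, and between −0.09 (ANXA6) and 0.45 (ANXA5) for the other 6. The 5 genes most like ANXA1 were ABHD5 (r = 0.98), DNTTIP2 (0.98), B3GNT2 (0.96), ATP6V1E1 (0.96) and LPXN (0.96). Libraries of a group share their treatment and the controls centre on 0, so these values are a description of 6 groups rather than of 18 independent points. They include siANKRD35 replicate 2, where ANXA1 was at 212.5 FPKM against 156.2 and 163.1 FPKM in the other siANKRD35 libraries. How far r and the ranks rest on that library was not tested. The mean changes of ABHD5 were −0.33, 0.33 and −0.20 in the RBCK1, ANKRD35 and MITD1 comparisons, beside −0.36, 0.28 and −0.23 for ANXA1. Those of ANXA2 were −0.42, 0.51 and −0.004, so ANXA2 did not follow ANXA1 in the MITD1 comparison.

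**Figure D5:**
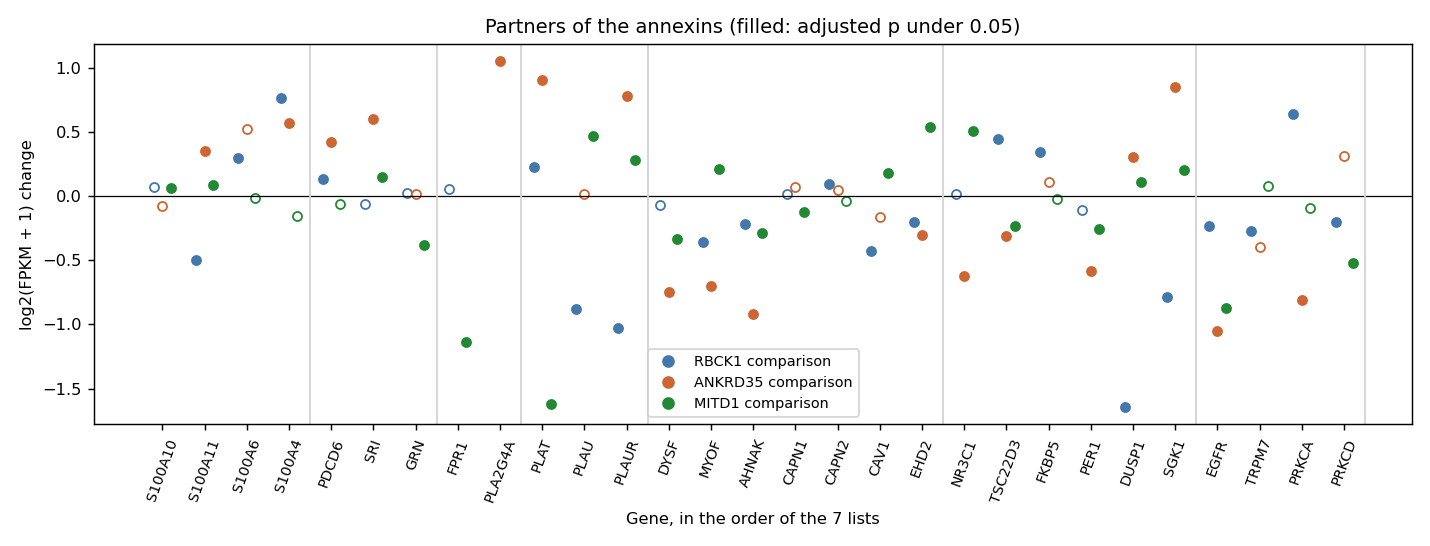
Change of the annexins' partners in the 3 comparisons (log2 of FPKM + 1, knockdown minus control; filled points passed an adjusted p of 0.05; grey lines part the 7 lists). DUSP1 is at −1.64 in the RBCK1 comparison and PLAT at −1.62 in the MITD1 comparison, and EGFR is below 0 in all 3.

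Genes tied to the annexins were read from the same fits and are called partners here. Their 7 lists cover binding proteins, receptors and phospholipase, fibrinolysis, membrane repair, the glucocorticoid response and kinases, and not every partner binds an annexin. Of 37 partners described here 28 were tested in each table. In the RBCK1 comparison 8 were called higher and 12 lower, in the ANKRD35 comparison 9 and 9, and in the MITD1 comparison 11 and 10. That made 20, 18 and 21 of 28 called, where 49.1%, 36.3% and 65.6% of all tested genes were called. Without siANKRD35 replicate 2, 17 of the 18 partners called in the ANKRD35 comparison could be tested, and 17 were called in the same direction.

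Of the S100 partners, 4 of 7 were tested. S100A10, the light chain of the annexin A2 tetramer, did not follow ANXA2. It measured 173.3 ± 8.10 FPKM in shcontrol and 181.8 ± 6.74 FPKM in shRBCK1 (0.07, limma adjusted p = 0.235), and 318.8 ± 16.0 and 303.4 ± 41.7 FPKM in the ANKRD35 comparison (−0.08, limma adjusted p = 0.606). In the MITD1 comparison it was called higher at 0.06 (limma adjusted p = 0.0436), a call that held in 7 of 14 alternatives.

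S100A11, the partner of annexin A1, fell with ANXA1 in the RBCK1 comparison and not in the MITD1 comparison. It measured 1135, 1097 and 1047 FPKM in shcontrol and 767.3, 796.1 and 756.8 FPKM in shRBCK1 (−0.50, limma adjusted p = 7.61e-05). In the MITD1 comparison it measured 1068, 1022 and 1051 FPKM against 1110, 1113 and 1115 FPKM (0.09, limma adjusted p = 0.0063), and quantile normalization turned that sign. It was higher in siANKRD35 (0.35, limma adjusted p = 0.0177), a call kept in 5 of 14 alternatives. S100A6, which binds annexins A2 and A11 among others, rose in shRBCK1 from 418.0 ± 14.1 to 512.7 ± 12.98 FPKM (0.29, limma adjusted p = 0.000619). S100A4, low in this line, rose from 0.74, 0.61 and 0.69 FPKM to 1.78, 1.85 and 1.95 FPKM in shRBCK1 (0.77) and by 0.57 in siANKRD35.

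The penta-EF-hand partners of annexins A7 and A11 were higher in the ANKRD35 comparison. SRI, which encodes sorcin, rose from 21.64, 22.41 and 22.50 FPKM to 34.30, 36.22 and 31.97 FPKM (0.60, limma adjusted p = 0.00199). PDCD6 rose from 8.52, 9.08 and 9.21 FPKM to 12.13, 12.34 and 12.35 FPKM (0.42, limma adjusted p = 0.00467), and both calls held in 14 of 14 alternatives. PDCD6 was also called higher in the RBCK1 comparison (0.13, limma adjusted p = 0.0163), a call that held in 11 of 14 alternatives. SRI did not pass the test there (−0.06, limma adjusted p = 0.372). In the MITD1 comparison, where ANXA7 rose most, SRI rose by 0.15 (limma adjusted p = 0.00471) and PDCD6 did not pass the test (−0.06, limma adjusted p = 0.487). GRN, which encodes progranulin, a lysosomal cargo protein, was lower there (−0.38, limma adjusted p = 1.10e-05).

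Receptors and targets of annexin A1 were low or absent. Of FPR1, FPR2, FPR3 and PLA2G4A, 1 was tested in each table. FPR1, a formyl peptide receptor, was lower in siMITD1, at 1.62, 0.98 and 1.45 FPKM against 3.94, 4.03 and 4.45 FPKM in the controls (−1.14, limma adjusted p = 2.21e-05). FPR1 is also carried by myeloid cells, and the summed blood cell markers were lower in the same libraries, as given above. LAPTM5 carried most of that sum, while PTPRC and CD3E were very low or absent. The part of blood cells in the FPR1 change was not tested. In the RBCK1 comparison LAPTM5 was higher, at 3.26 ± 0.52 FPKM in shRBCK1 against 2.19 ± 0.27 FPKM (0.42, limma adjusted p = 0.014), where FPR1 did not pass the test (0.05, limma adjusted p = 0.608). PLA2G4A, the cytosolic phospholipase A2, was tested in the ANKRD35 comparison, where it rose from 1.22, 1.64 and 1.18 FPKM to 3.11, 4.83 and 3.70 FPKM (1.05, limma adjusted p = 0.003). It was below the filter and not tested in the others, where its groups did not overlap either: 1.12, 1.02 and 0.90 FPKM in shcontrol against 0.76, 0.45 and 0.48 FPKM in shRBCK1, and 0.564, 0.629 and 1.003 FPKM in sicontrol_for_siMITD1 against 0.40, 0.50 and 0.21 FPKM in siMITD1. So it was listed lower in those knockdowns and higher in siANKRD35.

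Of 4 fibrinolysis genes tied to the annexin A2 tetramer 3 were tested in each table. In the RBCK1 comparison 2 were lower and 1 higher, and in the MITD1 comparison 2 were higher and 1 lower. Over all tested genes 49.1% and 65.6% were called in these comparisons. PLAU, urokinase, measured 99.69, 98.80 and 102.1 FPKM in shcontrol and 53.78, 55.28 and 52.98 FPKM in shRBCK1 (−0.88, limma adjusted p = 7.48e-07), but 41.08, 44.82 and 44.60 FPKM in sicontrol_for_siMITD1 and 61.40, 61.34 and 58.86 FPKM in siMITD1 (0.47, limma adjusted p = 1.37e-05). Its groups were separate in both, with opposite directions. The receptor gene PLAUR changed by −1.03 and 0.28 in the same 2 comparisons. PLAT, tissue plasminogen activator, went the other way from PLAU and PLAUR, by 0.23 and −1.62.

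After ANKRD35 knockdown, where ANXA2 was higher, PLAT (0.90) and PLAUR (0.78) rose, and PLAU did not pass the test (0.01, limma adjusted p = 0.882). PLAU measured 405.1, 402.4 and 394.1 FPKM in those controls and 412.4, 398.7 and 401.8 FPKM in siANKRD35. All calls of the fibrinolysis genes named here held in each alternative in which the gene was tested.

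Of the 8 membrane repair genes 7 were tested, and TRIM72 was not. AHNAK, a large scaffold bound by the annexin A2 tetramer, was lower in each comparison, with changes of −0.22 (RBCK1), −0.92 (ANKRD35) and −0.28 (MITD1), although the first call held in 9 of 14 alternatives. MYOF, which encodes the ferlin myoferlin, changed by −0.36, −0.70 and 0.21, and DYSF, which encodes dysferlin, by −0.07 (limma adjusted p = 0.46), −0.74 and −0.33. CAV1, of caveolae, changed by −0.43, −0.16 (limma adjusted p = 0.258) and 0.18, and EHD2, which stabilizes caveolae, by −0.21, −0.31 and 0.54. The EHD2 call in the ANKRD35 comparison held in 9 of 14 alternatives. After ANKRD35 knockdown 4 of 7 repair genes were lower and 0 higher, beside 16.9% lower and 19.4% higher of all tested genes. In the MITD1 comparison 3 were higher and 3 lower, beside 30% higher and 35.6% lower of all tested genes. The calpain genes were called once each, CAPN1 at −0.13 in siMITD1 (limma adjusted p = 0.00719) and CAPN2 at 0.09 in shRBCK1 (limma adjusted p = 0.0325, called in 5 of 14 alternatives). With gene length correction in the ANKRD35 comparison AHNAK was at −0.61 and MYOF at −0.55, and both were called there in 14 of 14 alternatives.

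Genes of the glucocorticoid response, which is known to raise ANXA1, gave no common direction. Of 7 listed, 6 were tested. In the RBCK1 comparison 2 were higher and 2 lower, in the ANKRD35 comparison 2 and 3, and in the MITD1 comparison 3 and 2. The shares called over all tested genes were 49.1%, 36.3% and 65.6%. In shRBCK1, where ANXA1 was lower, TSC22D3 (0.45) and FKBP5 (0.34) were higher, and DUSP1 (−1.64) and SGK1 (−0.79) were lower. SGK1 was instead higher in siANKRD35 (0.85) and siMITD1 (0.20), TSC22D3 lower in both (−0.31 and −0.23), and PER1 lower in both (−0.58 and −0.26). NR3C1, the receptor, was higher in siMITD1, at 16.89, 17.17 and 17.83 FPKM against 11.67, 11.90 and 12.07 FPKM (0.51), lower in siANKRD35 (−0.62), and did not pass the test in shRBCK1 (0.01, limma adjusted p = 0.89).

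Of 4 listed kinases that phosphorylate annexin A1, 3 were lower and 1 higher in shRBCK1. In siANKRD35 2 were lower and 0 higher, and in siMITD1 2 were lower and 0 higher. The shares called over all tested genes were 49.1%, 36.3% and 65.6%. EGFR was lower in all 3 comparisons, with changes of −0.24, −1.05 and −0.87, and was called in 14 of 14 alternatives of each. PRKCA, a protein kinase C gene, changed by 0.64 and −0.81 in the RBCK1 and ANKRD35 comparisons and by −0.09 in the MITD1 comparison (limma adjusted p = 0.0647). PRKCD changed by −0.20 and −0.52 in the RBCK1 and MITD1 comparisons, and did not pass the test at 0.31 in the ANKRD35 comparison (limma adjusted p = 0.0946). TRPM7, a channel kinase, fell by 0.27 in the RBCK1 comparison and did not pass the test in the others (−0.39, limma adjusted p = 0.0817 and 0.08, limma adjusted p = 0.252).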

How the data were processed

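Libraries were made from total RNA with a directional kit, per the labels' protocols. The sources used here give neither the aligner nor the counter and its strand. The submitters' processing notes name the build mm10, a mouse build, but 58735 of 58735 gene entries have the start and end of GENCODE 29 on GRCh38. Values are FPKM as deposited by the authors, in 3 separately normalized tables. Reads were recovered from them through the listed gene lengths, which the MITD1 table lacks and which were matched by symbol (91.9% of 18030 genes whole within 0.01 reads, all 8 members among them). Another 6 value columns name no sample here and were not used. The ANKRD35 knockdown columns say shRNA where the titles say si.

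Each comparison was fitted with limma 3.58.1 (limma-trend, two-sided, R 4.3.3) on log2(FPKM + 1) over its 6 libraries, keeping genes that reached 1 FPKM in 3 or more libraries, called at a Benjamini-Hochberg adjusted p under 0.05 over all tested genes. An exact permutation test of 3 against 3 cannot go below p = 0.1. The members and lists were chosen with earlier results of these data known. Named genes are the 8 members, the targets, other annexin genes with reads, the partners called in any comparison and the 5 genes most like ANXA1. Partners not called were left to the counts, with some named for contrast, and 1 gene of the lists as first written is not reported here. Alternatives were another pseudocount (0.1), no filter, quantile normalization, upper-quartile scaling, voom on recovered reads, gene length correction, a replicate block and leaving out each library. Correction for length and GC, summing ANXA2 with ANXA2P2 and principal transcript lengths were added after seeing the data.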

Additional observations from a re-analysis of the deposited data

How the results depend on the processing

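ANXA1 was called lower in 14 of 14 alternatives in the RBCK1 comparison (−0.41 to −0.27) and in the MITD1 comparison (−0.26 to −0.18). In the ANKRD35 comparison ANXA1 was at −0.10 with quantile normalization (limma adjusted p = 0.622) and at 0.17 with length and GC correction (limma adjusted p = 0.0345). There the members called, 3 as reported, were 1 without a filter (beside 10.9% of 27910 genes called), 6 with length and GC correction (43.7% of 11885), and 1 to 5 when 1 library was left out (1 without each control, 5 without siANKRD35 replicate 2). The genes called, 4312 as reported, ran from 2157 to 6518 when 1 library was left out: 2218, 2157 and 2240 without control replicates 1, 2 and 3, 6518 without siANKRD35 replicate 2 and 2814 without replicate 3. Fewer libraries enter those fits; the cause beyond that was not tested. The share of called genes that were higher moved from 49.2% to 56.9% with quantile normalization, 59.2% with upper-quartile scaling and 61.1% with voom in the RBCK1 comparison, and from 53.5% to 34.5% with upper-quartile scaling and 39.1% with voom in the ANKRD35 comparison.

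The signs of several estimates turned, not all of them small, and the cause was not tested. In the RBCK1 comparison ANXA4 was at −0.0114 with length correction, at −0.0552 with length and GC correction, and between −0.0279 (without shRBCK1 replicate 2) and 0.0567 when 1 library was left out. Quantile normalization gave 0.0419 for ANXA5, 0.0261 for ANXA7 and 0.0164 for ANXA11. ANXA11 was at 0.00121 and MITD1 at 0.00646 with upper-quartile scaling, and they were at 0.00879 and 0.0161 with voom. In the ANKRD35 comparison ANXA5 was called at −0.34 with quantile normalization (limma adjusted p = 0.0218). With length and GC correction it was also called, at −0.18 (limma adjusted p = 0.0156). It was at −0.11 with upper-quartile scaling, −0.0785 with voom and −0.17 with length correction. When 1 library was left out it lay between −0.0307 (without siANKRD35 replicate 2) and 0.0405. ANXA4 was at −0.0182 with upper-quartile scaling. With quantile normalization ANXA6, reported at 0.21, was at −0.0142, and ANXA11, reported at 0.15, was at −0.00156. S100A10 lay between −0.17 and 0.0284 (without siANKRD35 replicate 2) when 1 library was left out. In the MITD1 comparison ANXA2 was at 0.0326 with upper-quartile scaling and S100A11 at −0.0215 with quantile normalization.

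Replicate numbers did not pair the libraries: deviations of same-numbered libraries correlated at −0.01, 0.01 and 0.03 (RBCK1), 0.18, 0.11 and −0.09 (ANKRD35) and 0.10, 0.03 and −0.00 (MITD1). With a replicate block the genes called were 5347, 4139 and 6859, and ANXA1 was at adjusted p = 0.0833 in the ANKRD35 comparison by limma. The block lost the call of ANXA3 there (limma adjusted p = 0.106).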

Other observations

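Apart from ANXA2P2 and ANXA9, given above, annexin genes outside the 8 members were at 1.31 FPKM or less in each library. ANXA8L1 was listed at 0.696, 1.15 and 0.562 FPKM in sicontrol_for_siMITD1 and at 0.182, 0.214 and 0.217 FPKM in siMITD1, without overlap, and ANXA8, its near-identical copy, at 0.399, 0.508 and 0.327 against 0.183, 0.171 and 0.266 FPKM. In the ANKRD35 comparison ANXA8L1 was listed at 0.175, 0.197 and 0.175 FPKM against 0.061, 0.0417 and 0.0195 FPKM in siANKRD35, on 29 and 6 reads in all, while the ANXA8 groups overlapped. In the RBCK1 comparison ANXA8 was listed at 0.686, 0.390 and 0.406 FPKM against 0.274, 0.322 and 0.157 FPKM in shRBCK1, without overlap, while the ANXA8L1 groups overlapped. Reads may be split between these copies, and neither was tested in any comparison. ANXA10 ran up to 0.588 FPKM in the RBCK1 table and was listed at 0 in each library of the ANKRD35 table. ANXA2P1, a pseudogene, reached 0.180 FPKM at most in the ANKRD35 table, and ANXA13 stayed at 0.051 FPKM or less in every library. ANXA2R, which encodes a receptor for annexin A2, was tested in the MITD1 comparison, where it went from 0.798, 1.22 and 0.973 FPKM to 1.25, 1.31 and 0.967 FPKM (0.12, limma adjusted p = 0.305).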
